A study of Homo sapiens with 4 samples.

Results

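The autophagy machinery genes are the genes whose products start, build and fill autophagosomes and hand them to the lysosome. They were taken as 41 named genes, which were the components of the ULK and PI3K complexes, the membrane supply and conjugation factors, the ATG4 proteases, the ATG8 family, autophagy receptors, the TFEB family and the lysosomal membrane proteins LAMP1 and LAMP2. All 41 were found among the 57768 gene identifiers, and 40 passed the filter on low values, a mean of at least 1 FPKM (fragments scaled by transcript length and library size) over the 4 libraries. In all, 12491 genes passed that filter and were tested.

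The RNA-seq libraries are labelled HepG2, a line long grown from a human liver cancer. WT cells and C/EBPβ enh-/- cells, whose enhancer of C/EBPβ CRISPR/Cas9 had removed from both alleles, have 2 libraries each. C/EBPβ is a transcription factor of the liver, and the comparison asks which transcripts differ once this enhancer is gone. Nothing in the sources used here says whether the 2 libraries of a genotype came from separate cultures or how many edited clones they stand for, so the p-values below measure only the spread between these 4 libraries. Pairs of values below are in the order replicate 1 and replicate 2.

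CEBPB, the gene for C/EBPβ (ENSG00000172216.4, chr20:48807367-48809205 on GRCh37, plus strand), was at 30.6 and 19.2 FPKM in WT and at 12.4 and 11.8 FPKM in C/EBPβ enh-/- cells. Both C/EBPβ enh-/- libraries lay below both WT libraries, but the log2 fold change of −0.94 (standard error 0.27) did not pass the threshold (limma, Benjamini-Hochberg adjusted p = 0.125). Fold changes here and below are differences of log2(FPKM + 1), which understates the change of genes of low level. The labelled cell line was checked against 16 markers of liver cells, and 15 of them, ALB, AFP and HNF4A among them, were below 1 FPKM in all 4 libraries, with FOXA2 at 0 in each. The exception was CPS1, a urea cycle enzyme, at 608 and 417 FPKM in WT and 242 and 360 FPKM in C/EBPβ enh-/- cells. Summed over the list, liver markers came to 608 and 418 FPKM in WT and 243 and 361 FPKM in C/EBPβ enh-/- cells, nearly all of it CPS1. The defining liver markers are thus absent from libraries labelled HepG2, and the label is used below only as a name. Of 7 mesenchymal markers, COL3A1, COL1A1 and PDGFRB passed the filter, and the list summed to 54.3 and 50.2 FPKM in WT and 57.6 and 73.4 FPKM in C/EBPβ enh-/- cells, COL3A1 being the most abundant. COL3A1 was at 33.3 and 31.9 FPKM in WT and 45.8 and 55.7 FPKM in C/EBPβ enh-/- cells. PDGFRB lay below WT, at 4.15 and 5.59 FPKM in WT and 1.52 and 2.27 FPKM in C/EBPβ enh-/- cells. So did DCN, at 1.33 and 1.24 FPKM in WT and 0.110 and 0.392 FPKM in C/EBPβ enh-/- cells. COL1A1 overlapped, and COL1A2, LUM and THY1 were near 0. Endothelial markers (3 of 4 matched) summed to at most 0.249 FPKM in any library, with CDH5 the most abundant and KDR at 0 in 3 of 4 libraries, and the 5 blood cell markers to at most 0.310 FPKM, with HBA1 the most abundant and CD3E and HBB at 0 in each library. What the markers have to do with the autophagy genes was not tested.

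Autophagy encloses part of the cytoplasm in a double membrane, the autophagosome, and delivers it to the lysosome for breakdown. The ULK kinase complex receives the starvation signal, a lipid kinase complex marks the membrane where the autophagosome forms, and a conjugation system couples proteins of the ATG8 family to that membrane, where receptors bring the cargo. In liver cells the pathway is known for supplying amino acids and lipids during fasting and for removing damaged mitochondria and protein aggregates.

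By estimate, the libraries were not of the same depth. Depth was read indirectly, from the peak of the ratios between libraries of FPKM values under 0.3. Relative to WT replicate 1 it was 1.12 in WT replicate 2, 0.555 in C/EBPβ enh-/- replicate 1 and 1.22 in C/EBPβ enh-/- replicate 2. In C/EBPβ enh-/- replicate 1 the 5 highest genes held 35.1% of the summed FPKM, against 22.3% and 18.8% in WT and 27.4% in the other C/EBPβ enh-/- library. Where a gene is given by library below and its fold change lay mainly in C/EBPβ enh-/- replicate 1, the value without that library is given too.

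None of the 40 tested autophagy genes was called lower or higher in C/EBPβ enh-/- cells by limma at an adjusted p of 0.05. Among all 12491 tested genes, limma called 151 lower (1.21%) and 31 higher (0.248%). The division of these calls moved with the scale, with 61 lower and 23 higher after rescaling the libraries to the same total and 68 lower and 31 higher after centring each library on its median gene. Left out in turn, WT replicates 1 and 2 and C/EBPβ enh-/- replicates 1 and 2 left 22, 9, 15 and 20 genes called lower and 3, 3, 20 and 19 called higher.

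At an unadjusted p under 0.05 in limma, 3 autophagy genes were lower, OPTN, BECN1 and LAMP1, and 0 were higher. The same threshold took 16.9% of all tested genes as lower and 3.86% as higher. In 15 of the 40 autophagy genes both C/EBPβ enh-/- libraries lay below both WT libraries, which is 37.5%, the same share as the 37.5% of all tested genes. In 3 of them, ATG2A, ATG10 and CALCOCO2, both C/EBPβ enh-/- libraries lay above both WT libraries, a share of 7.5% beside 15.1% of all tested genes. The other 22 overlapped between the genotypes. The median log2 fold change was −0.17 over the 40 autophagy genes and −0.14 over all tested genes. Fold changes were below 0 for 29 of the 40 (72.5%, beside 62.6% of all tested genes), but for 19 of 40 after centring on the median gene, which shifted the median of all genes by 0.17 and brought that of the autophagy genes to 0.00. An exact permutation test of 2 against 2 libraries cannot give a two-sided p below 0.333, so single genes were judged by the fit across all genes. In bulk RNA, less transcript per cell and fewer cells with the transcript cannot be told apart.

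**Figure D1:**
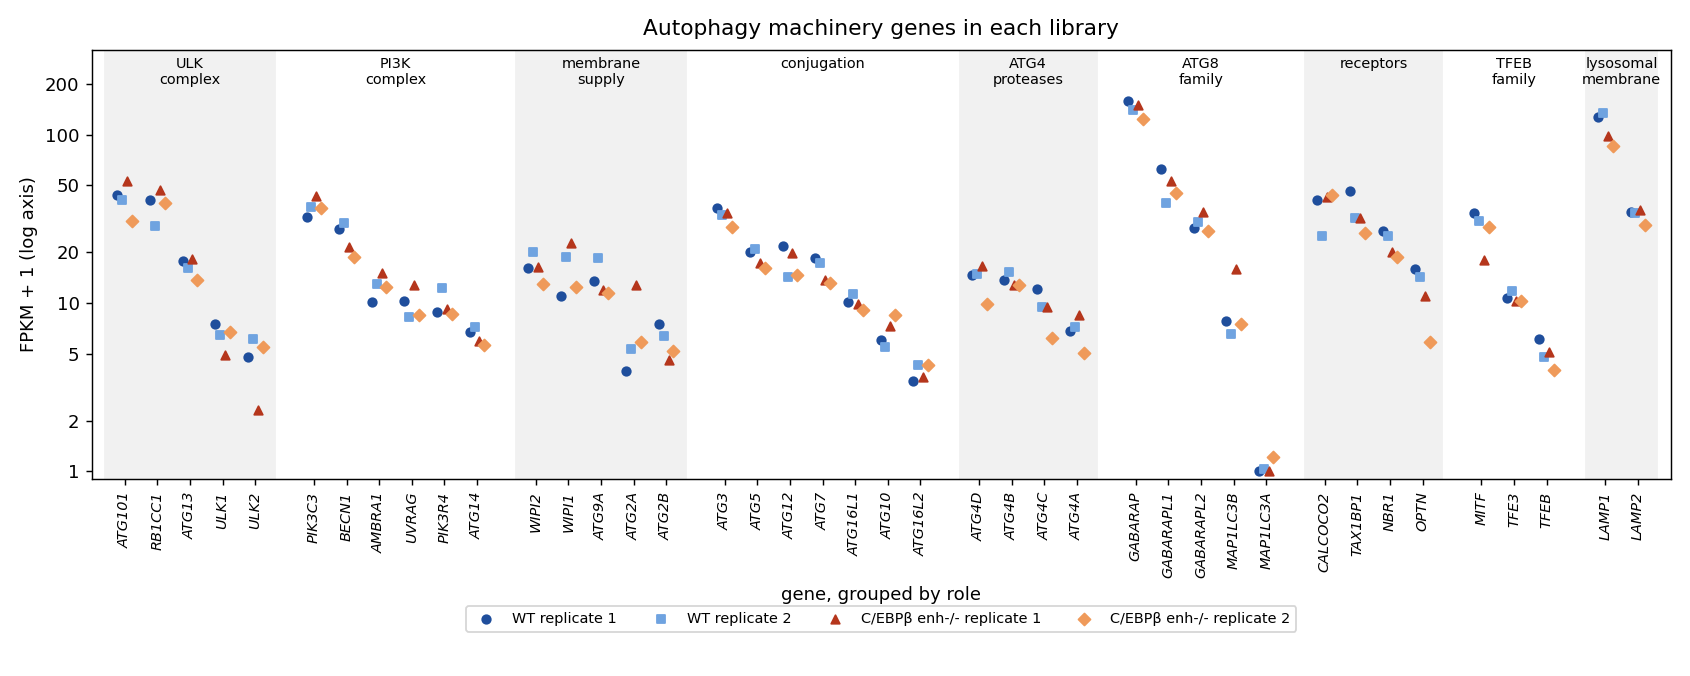
FPKM + 1 on a log axis for each of the 41 autophagy machinery genes in each of the 4 libraries, ordered by role and by mean level. GABARAP and LAMP1 were the most abundant, MAP1LC3A was near 0, and in most genes the libraries of both genotypes lie close together.

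The ULK complex, which starts autophagosome formation, had 5 tested members. None was without overlap of the genotypes, where 37.5% of all tested genes lay below WT and 15.1% above. ATG101, the stabilising subunit that binds ATG13, was the most abundant, at 42.8 and 39.8 FPKM in WT and 52.2 and 29.8 FPKM in C/EBPβ enh-/- cells. The C/EBPβ enh-/- libraries lay on either side of both WT libraries, and the log2 fold change of −0.06 (standard error 0.30) became 0.11 after centring on the median gene and ran from −0.46 to 0.33 with a library left out. ULK2, one of the kinases, had the largest difference of the complex on the log2 scale, −0.60 (standard error 0.42), and it came from C/EBPβ enh-/- replicate 1 at 1.32 FPKM, the other 3 libraries lying between 3.74 and 5.13 FPKM. Without that library it was 0.01, and without C/EBPβ enh-/- replicate 2 it was −1.22. The scaffold RB1CC1, the kinase ULK1 and the adaptor ATG13 had log2 fold changes of 0.32, −0.29 and −0.10, which with a library left out ran from 0.06 to 0.58, from −0.51 to −0.06 and from −0.31 to 0.11. The median over the complex was −0.10, with 0.11 for C/EBPβ enh-/- replicate 1 and −0.06 for replicate 2 against the mean of WT.

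The PI3K complex makes the lipid PI3P at the site where the autophagosome forms. Its most abundant member was PIK3C3, the catalytic subunit VPS34, at 31.6 and 36.1 FPKM in WT and 42.2 and 35.8 FPKM in C/EBPβ enh-/- cells, which overlap (log2 fold change 0.20, standard error 0.22, and 0.08 without C/EBPβ enh-/- replicate 1 or 0.31 without replicate 2). BECN1, the regulatory subunit Beclin 1 (ENSG00000126581.8, chr17:40962152-40985367 on GRCh37, minus strand), was at 26.6 and 28.8 FPKM in WT and 20.5 and 17.6 FPKM in C/EBPβ enh-/- cells. The C/EBPβ enh-/- values were lower than both WT values by more than the libraries of a genotype differed from each other, and the log2 fold change of −0.52 (standard error 0.22) did not pass the threshold (limma, Benjamini-Hochberg adjusted p = 0.237). ATG14, the subunit that directs the complex to autophagy, was also without overlap, at −0.26 (from −0.31 to −0.08 over the alternatives), and PIK3R4, UVRAG and AMBRA1 overlapped, with −0.22, 0.18 and 0.26. With a library left out PIK3R4 ran from −0.46 to 0.01, UVRAG from −0.12 to 0.49 and AMBRA1 from 0.08 to 0.45. The median log2 fold change of the complex was −0.02, with 0.07 for C/EBPβ enh-/- replicate 1 and −0.20 for replicate 2, and differences between its subunits were not tested.

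Membrane supply had fold changes of both signs among its 5 members. ATG2A, a tube that carries lipid to the growing membrane (ENSG00000110046.8, chr11:64662018-64684681 on GRCh37, minus strand), was at 2.95 and 4.35 FPKM in WT and 11.8 and 4.87 FPKM in C/EBPβ enh-/- cells. Its log2 fold change of 0.92 (standard error 0.39) was the highest of the 40 but did not pass the threshold (limma, Benjamini-Hochberg adjusted p = 0.247). The difference rested largely on C/EBPβ enh-/- replicate 1, without which it was 0.35 (that of replicate 1 alone against WT was 1.48). ATG2B, its paralog with the same task, was at 6.53 and 5.34 FPKM in WT and 3.56 and 4.17 FPKM in C/EBPβ enh-/- cells. Here each C/EBPβ enh-/- value was below each WT value (log2 fold change −0.51, standard error 0.23). Whether the changes of ATG2A and ATG2B differ from each other was not tested. ATG9A, the scramblase of the vesicles that seed the autophagosome, was at 12.4 and 17.5 FPKM in WT and 10.9 and 10.5 FPKM in C/EBPβ enh-/- cells, again without overlap but with a gap to the lower WT library smaller than that between the WT libraries (log2 fold change −0.43, standard error 0.24, and −0.20 without WT replicate 2 or −0.665 without WT replicate 1). WIPI2, the PI3P reader that recruits ATG16L1, was the most abundant of this role, at 15.1 and 19.1 FPKM in WT and 15.4 and 12.02 FPKM in C/EBPβ enh-/- cells, and its groups overlapped (log2 fold change −0.30, and from −0.47 to −0.14 with a library left out), as did those of WIPI1.

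The conjugation system had 7 tested members with a median log2 fold change of −0.17, or −0.09 for C/EBPβ enh-/- replicate 1 and −0.26 for replicate 2. ATG7, the E1-like enzyme that activates both ubiquitin-like proteins of the pathway, was at 17.4 and 16.2 FPKM in WT and 12.7 and 12.2 FPKM in C/EBPβ enh-/- cells. The libraries of each genotype lay close together and the genotypes did not overlap, yet the log2 fold change of −0.40 (standard error 0.21) did not pass the threshold (limma, Benjamini-Hochberg adjusted p = 0.318). Exons of ATG7 share 1597 bases with VGLL4 on the other strand, which was at 23.99 and 24.8 FPKM in WT and 10.5 and 15.6 FPKM in C/EBPβ enh-/- cells. ATG10, the E2-like enzyme that passes ATG12 to ATG5, was at 5.00 and 4.49 FPKM in WT and 6.32 and 7.499 FPKM in C/EBPβ enh-/- cells. Neither C/EBPβ enh-/- value came down to the WT values, and the log2 fold change of 0.46 (standard error 0.22) did not pass the threshold either (limma, Benjamini-Hochberg adjusted p = 0.296). It shares 374 bases of exon with the ribosomal protein gene RPS23 on the other strand, which was at 1422 and 1489 FPKM in WT and 1015 and 1174 FPKM in C/EBPβ enh-/- cells. The sources used here do not say whether reads were assigned by strand, and without strand, reads of a gene and of its partner on the other strand cannot be told apart. In all, 14 of the 41 genes share exon bases with a gene on the other strand that had a mean of at least 1 FPKM. They include BECN1, which shares 300 bases with PSME3, at 36.9 and 43.0 FPKM in WT and 33.2 and 28.1 FPKM in C/EBPβ enh-/- cells, and OPTN, which shares 147 bases with CCDC3, at 2.13 and 8.62 FPKM in WT and 0.269 and 0.653 FPKM in C/EBPβ enh-/- cells. ATG3, the E2-like enzyme for the ATG8 family and the most abundant of the role, was at 35.9 and 32.3 FPKM in WT and 33.4 and 27.2 FPKM in C/EBPβ enh-/- cells, which overlap, and its log2 fold change of −0.17 (standard error 0.22) became 0.00 after centring on the median gene. ATG5 and ATG16L1, which with ATG12 form the complex that places ATG8 proteins on the membrane, were without overlap and below WT, with log2 fold changes of −0.30 and −0.17, whereas ATG12 itself and ATG16L2, a relative of ATG16L1, overlapped, at −0.05 and 0.03. Over the alternatives ATG5 ran from −0.35 to −0.13, ATG16L1 from −0.24 to 0.00, ATG12 from −0.36 to 0.26 and ATG16L2 from −0.12 to 0.21.

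All 4 ATG4 proteases, which trim ATG8 proteins before conjugation and release them afterwards, had fold changes below 0, as had 62.6% of all tested genes, with a median of −0.19 and a range of −0.49 to −0.11. Against the mean of WT the median was −0.00 in C/EBPβ enh-/- replicate 1 and −0.53 in replicate 2, and without replicate 2 the values of ATG4A and ATG4D were 0.26 and 0.18. ATG4C was at 11.1 and 8.50 FPKM in WT and 8.42 and 5.19 FPKM in C/EBPβ enh-/- cells. The genotypes were separated only by the narrow gap between WT replicate 2 and C/EBPβ enh-/- replicate 1, and on the log2 scale the difference was −0.49 (standard error 0.28), and −0.18 without C/EBPβ enh-/- replicate 2 or −0.79 without replicate 1. ATG4D, the most abundant protease, was at 13.6 and 13.8 FPKM in WT and 15.7 and 8.83 FPKM in C/EBPβ enh-/- cells. Its C/EBPβ enh-/- libraries lay on either side of the WT libraries, and the log2 fold change was −0.20 (standard error 0.29). ATG4A overlapped and ATG4B, the most active of the proteases on LC3, did not.

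The ATG8 family, the ubiquitin-like proteins that mark the autophagosome and bind cargo receptors, had 4 tested members. All overlapped between the genotypes, as did 5923 of all 12491 tested genes. GABARAP was the most abundant of all 41 genes, at 158 and 139 FPKM in WT and 149 and 123 FPKM in C/EBPβ enh-/- cells (log2 fold change −0.13, standard error 0.22, and 0.05 after centring on the median gene). GABARAPL1 and GABARAPL2 had log2 fold changes of −0.02 and 0.07, which over the alternatives ran from −0.36 to 0.32 and from −0.12 to 0.26. MAP1LC3B, the gene of the LC3 protein most used to follow autophagy, was at 6.83 and 5.53 FPKM in WT and 14.8 and 6.52 FPKM in C/EBPβ enh-/- cells. Only C/EBPβ enh-/- replicate 1 stood apart, and the log2 fold change of 0.61 (standard error 0.37) was 0.07 without that library and 1.14 without C/EBPβ enh-/- replicate 2. MAP1LC3B2 on another chromosome is a near-identical copy that was listed at up to 0.00378 FPKM, and how reads were shared between the copies is not given in the sources used here, so the level of MAP1LC3B is uncertain. MAP1LC3A, another LC3 gene, was at 0 and 0.0300 FPKM in WT and 0 and 0.220 FPKM in C/EBPβ enh-/- cells, below the filter, and was not tested.

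The receptors, which bind ubiquitin on cargo and ATG8 proteins on the membrane, had 3 genes below WT and 1 above WT without overlap of the genotypes, where 37.5% of all tested genes lay below and 15.1% above. OPTN, optineurin (ENSG00000123240.12, chr10:13141449-13180308 on GRCh37, plus strand), was at 14.97 and 13.2 FPKM in WT and 10.0 and 4.89 FPKM in C/EBPβ enh-/- cells. Its log2 fold change of −0.90 (standard error 0.32) was the lowest of the 40 and did not pass the threshold (limma, Benjamini-Hochberg adjusted p = 0.181). The C/EBPβ enh-/- libraries themselves differed, and the value was −0.45 without C/EBPβ enh-/- replicate 2 and −1.35 without replicate 1. NBR1 was at 25.8 and 23.9 FPKM in WT and 19.1 and 17.8 FPKM in C/EBPβ enh-/- cells, a difference of −0.41 (standard error 0.21) on the log2 scale that exceeded the gaps within both genotypes. TAX1BP1 was at 45.1 and 30.9 FPKM in WT and 30.8 and 25.1 FPKM in C/EBPβ enh-/- cells, where the higher C/EBPβ enh-/- library all but met the lower WT library (log2 fold change −0.41, standard error 0.26, and −0.15 without WT replicate 1 or −0.68 without WT replicate 2). CALCOCO2, known as NDP52 and the most abundant of these receptors, was at 39.8 and 24.1 FPKM in WT and 41.5 and 42.5 FPKM in C/EBPβ enh-/- cells. It lay above WT in both C/EBPβ enh-/- libraries, by little over WT replicate 1 and by much over WT replicate 2 (log2 fold change 0.43, standard error 0.28). Without WT replicate 2 it was 0.07, and without WT replicate 1 it was 0.78.

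The TFEB family are the transcription factors that bind CACGTG sites of lysosomal and autophagy genes. MITF, the most abundant, was at 33.3 and 29.5 FPKM in WT and 16.9 and 27.3 FPKM in C/EBPβ enh-/- cells. It was below WT in each C/EBPβ enh-/- library, by more in replicate 1 (log2 fold change −0.52, standard error 0.28, limma, Benjamini-Hochberg adjusted p = 0.329). Without C/EBPβ enh-/- replicate 1 it was −0.19 and without replicate 2 it was −0.85. TFE3 did not overlap and TFEB did, with log2 fold changes of −0.12 and −0.26, which over the alternatives ran from −0.19 to 0.05 and from −0.44 to −0.08.

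LAMP1, the main glycoprotein of the lysosomal membrane (ENSG00000185896.9, chr13:113951554-113977987 on GRCh37, plus strand), was at 126 and 133 FPKM in WT and 97.6 and 84.5 FPKM in C/EBPβ enh-/- cells. The genotypes were apart by more than the gaps within them, C/EBPβ enh-/- being lower, and the log2 fold change of −0.51 (standard error 0.21, 95% interval −1.01 to −0.01) did not pass the threshold (limma, Benjamini-Hochberg adjusted p = 0.233). LAMP2, its paralog and the receptor of chaperone-mediated autophagy, overlapped between the genotypes, at −0.10 on the log2 scale and from −0.24 to 0.08 over the alternatives.

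**Figure D2:**
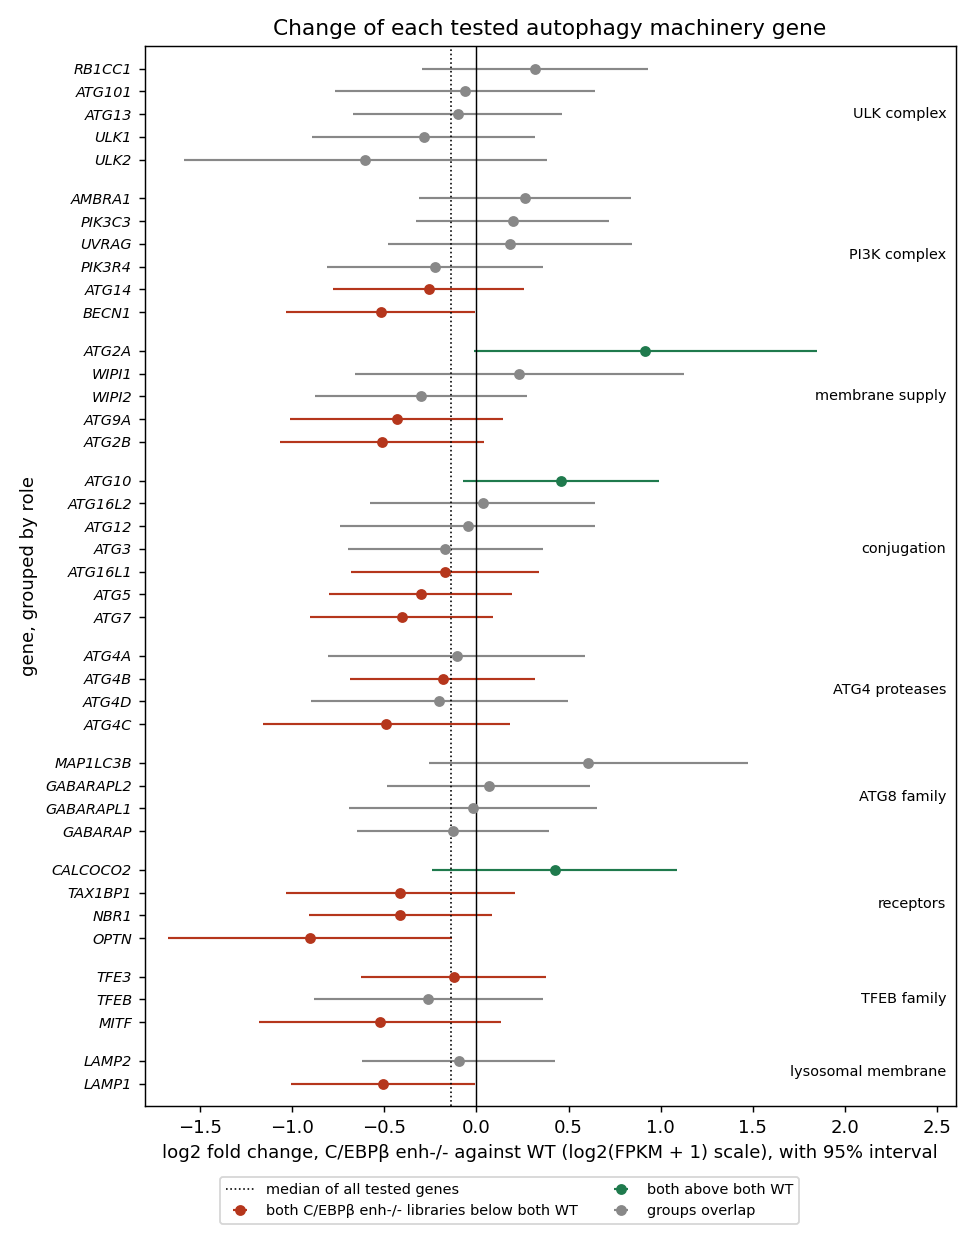
Log2 fold change (C/EBPβ enh-/- against WT, log2(FPKM + 1) scale) of the 40 tested autophagy genes with 95% intervals from limma, 2 libraries per genotype, grouped by role and coloured by whether the genotypes overlap. The dotted line is the median of all tested genes, −0.14, and only the intervals of OPTN, BECN1 and LAMP1 do not reach 0.

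The intervals say how large a difference the 4 libraries leave room for. For 27 of the 40 genes the 95% interval lay within a doubling or halving, that is between −1 and 1 on the log2 scale, beside 54.8% of all tested genes. For the other 13, OPTN, ATG2A, MAP1LC3B and ULK2 among them, the interval reached beyond a doubling or a halving. The genotype difference was larger than the gap between the libraries of either genotype in 11 of the 40 genes and in 40.3% of all tested genes.

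Fold changes differed by position in the genome. Over all tested genes the median log2 fold change of a chromosome ran from −0.50 on chromosome 13 to 0.21 on chromosome 8, and it was −0.47 on chromosome 17, which holds 6 of the autophagy genes. Both C/EBPβ enh-/- libraries lay below both WT libraries for 64.1% of the 721 tested genes of chromosome 17 and for 14.5% of the 422 of chromosome 8, and each C/EBPβ enh-/- library alone gave these chromosomes medians of the same sign against the WT mean (−0.44 and −0.51 on chromosome 17, 0.29 and 0.15 on chromosome 8). The 40 autophagy genes lie on 17 chromosomes. LAMP1 at −0.51 was level with the median of its chromosome, −0.50, and with that of the 16 tested genes within 2 Mb on each side, −0.48. BECN1 at −0.52 and NBR1 at −0.41 stood beside neighbours at −0.36 (75 genes) and −0.37 (85 genes), and OPTN at −0.90 beside neighbours at −0.63 (20 genes). CALCOCO2 at 0.43 went the other way from its 50 neighbours at −0.51. ATG2A at 0.92 had neighbours at 0.07 (103 genes), and ATG7 at −0.40 had neighbours at −0.30 (38 genes). Set against the median of its own chromosome, an autophagy gene differed by −0.00 in the median, and 20 of the 40 were below that median. The part of position in these differences was not tested.

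**Figure D3:**
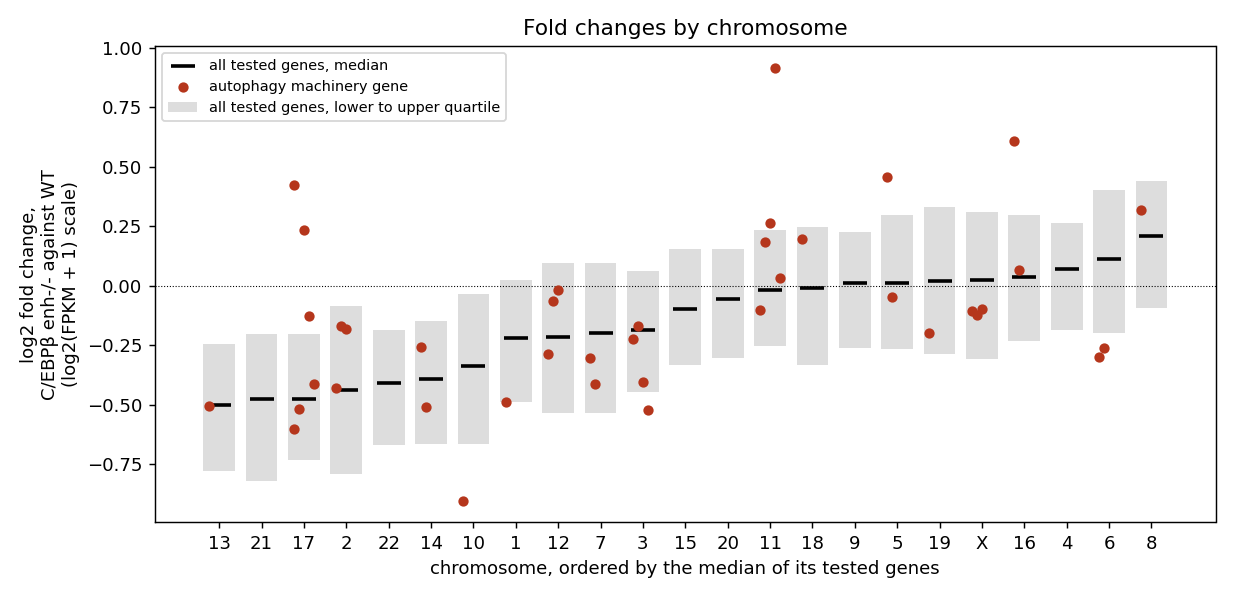
Log2 fold change (C/EBPβ enh-/- against WT, log2(FPKM + 1) scale) by chromosome, ordered by the median over its tested genes; grey bars span the lower to the upper quartile, black lines are medians and points are the 40 tested autophagy genes. Chromosome medians run from −0.50 to 0.21, and 20 of the 40 points lie below the median of their chromosome.

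Further genes of the pathway were taken from lists that go with each role. Of 35 other autophagy genes, 34 were matched and 32 tested. Among them limma called 0 lower and 0 higher, beside 1.21% and 0.248% of all tested genes. At an unadjusted p under 0.05 in limma, 1 was lower and 0 higher, beside 16.9% and 3.86% of all tested genes. Both C/EBPβ enh-/- libraries lay below both WT libraries in 9 (28.1%, beside 37.5% of all tested genes) and above in 5 (15.6%, beside 15.1%), and the median log2 fold change was −0.03. SNAP29, a SNARE that fuses autophagosome and lysosome, was at 14.4 and 12.5 FPKM in WT and 8.88 and 7.06 FPKM in C/EBPβ enh-/- cells (log2 fold change −0.69, standard error 0.23). WDR45B, a PI3P-binding relative of the WIPI proteins, was at 31.4 and 27.0 FPKM in WT and 22.4 and 18.1 FPKM in C/EBPβ enh-/- cells (log2 fold change −0.51). In both genes each C/EBPβ enh-/- value was below each WT value, but neither passed the threshold (limma, Benjamini-Hochberg adjusted p = 0.160 and 0.263). EI24, a membrane protein of the endoplasmic reticulum needed for autophagy, was at 27.6 and 42.6 FPKM in WT and 49.96 and 46.6 FPKM in C/EBPβ enh-/- cells (log2 fold change 0.48, and 0.17 without WT replicate 1 or 0.78 without WT replicate 2). MAP1LC3C and MAP1LC3B2 were below the filter, and NCOA4 was not analysed here.

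The nutrient control list, with 31 genes of mTORC1, the Rag and Ragulator complexes and AMPK, had 30 tested. In it limma called 0 in either direction, beside 1.21% lower and 0.248% higher of all tested genes. The list had 1 lower and 2 higher at an unadjusted p under 0.05 in limma, beside 16.9% and 3.86% of all tested genes. Its median log2 fold change was 0.09, and both C/EBPβ enh-/- libraries lay below both WT libraries in 8 genes (26.7%) and above in 6 (20%), where all tested genes had 37.5% and 15.1%. RHEB, the GTPase that switches mTORC1 on, was at 66.9 and 69.1 FPKM in WT and 130 and 92.5 FPKM in C/EBPβ enh-/- cells (log2 fold change 0.68, standard error 0.24, and 0.44 without C/EBPβ enh-/- replicate 1 or 0.93 without replicate 2). LAMTOR4, a Ragulator subunit, was at 76.4 and 88.1 FPKM in WT and 55.3 and 47.9 FPKM in C/EBPβ enh-/- cells (log2 fold change −0.66, standard error 0.22). Parts of the same lysosomal signalling platform thus had values on opposite sides of WT. RRAGB, a Rag GTPase, was at 5.75 and 6.12 FPKM in WT and 9.17 and 10.6 FPKM in C/EBPβ enh-/- cells (log2 fold change 0.65). STK11, the kinase upstream of AMPK, was below the filter.

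Of 30 lysosomal enzymes and membrane proteins, all tested, limma called 1 lower and 0 higher, beside 1.21% and 0.248% of all tested genes. At an unadjusted p under 0.05 in limma, 3 were lower and 3 higher, beside 16.9% and 3.86% of all tested genes. The call was GAA, the acid glucosidase that degrades glycogen in the lysosome (ENSG00000171298.8, chr17:78075332-78093680 on GRCh37, plus strand), at 12.4 and 12.6 FPKM in WT and 3.10 and 3.17 FPKM in C/EBPβ enh-/- cells. GAA fell, and in both C/EBPβ enh-/- libraries alike (log2 fold change −1.71, standard error 0.21, limma, Benjamini-Hochberg adjusted p = 0.0208), while its 70 neighbours within 2 Mb had a median of −0.46. The call was lost with any 1 library left out, at adjusted p of 0.229 and 0.220 without WT replicates 1 and 2 and 0.144 and 0.0942 without C/EBPβ enh-/- replicates 1 and 2, and with no filter on low values, at 0.216 (limma, Benjamini-Hochberg). The fold change itself hardly moved, from −1.72 to −1.70 with a library left out and −1.71 with no filter. The proteases CTSL and TPP1 lay above WT, CTSL at 90.2 and 94.1 FPKM in WT and 241 and 135 FPKM in C/EBPβ enh-/- cells (log2 fold change 0.96, and 0.55 without C/EBPβ enh-/- replicate 1 or 1.38 without replicate 2) and TPP1 at 6.36 and 8.52 FPKM in WT and 14.7 and 13.8 FPKM in C/EBPβ enh-/- cells (log2 fold change 0.87). Neither passed the threshold. Over the list, 8 genes (26.7%, beside 37.5% of all tested genes) were without overlap below WT and 9 (30.0%, beside 15.1%) above, with a median of 0.04 that was −0.23 without C/EBPβ enh-/- replicate 1 and 0.27 without C/EBPβ enh-/- replicate 2.

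The V-ATPase, the proton pump that acidifies the lysosome, had 15 tested subunits. Of these limma called 0 lower and 0 higher, beside 1.21% and 0.248% of all tested genes. At an unadjusted p under 0.05 in limma, 0 were lower and 0 higher, beside 16.9% and 3.86% of all tested genes. Both C/EBPβ enh-/- libraries lay above both WT libraries in 7 (46.7%, beside 15.1% of all tested genes) and below in 2 (13.3%, beside 37.5%), and the median log2 fold change was 0.43, or 0.17 without C/EBPβ enh-/- replicate 1. ATP6V0E1, of the membrane sector, was at 70.2 and 123 FPKM in WT and 215 and 125 FPKM in C/EBPβ enh-/- cells, so that replicate 2 was barely above the higher WT library (log2 fold change 0.81, standard error 0.36). ATP6V1C1, of the peripheral sector, was at 31.3 and 28.7 FPKM in WT and 68.3 and 36.1 FPKM in C/EBPβ enh-/- cells (log2 fold change 0.71). ATP6V0B, also of the membrane sector, was at 95.3 and 115 FPKM in WT and 215 and 124 FPKM in C/EBPβ enh-/- cells (log2 fold change 0.64). In each of these subunits C/EBPβ enh-/- replicate 1 stood far above the other 3 libraries, and without it the values of ATP6V0E1, ATP6V1C1 and ATP6V0B were 0.43, 0.26 and 0.25. Without replicate 2 those of ATP6V1C1 and ATP6V0B were 1.16 and 1.03, and that of ATP6V0E1 ran from 0.41 to 1.22 with a library left out.

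**Figure D4:**
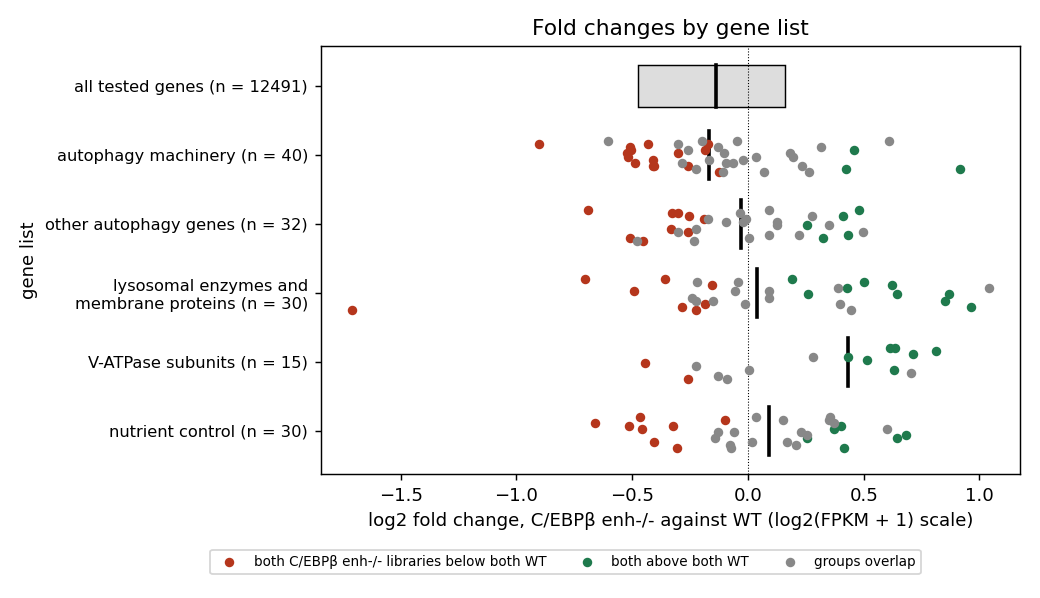
Log2 fold change (C/EBPβ enh-/- against WT, log2(FPKM + 1) scale) of each tested gene by list, coloured by whether the genotypes overlap; black lines are list medians and the grey box spans the lower to the upper quartile of all 12491 tested genes. The autophagy machinery has its median at −0.17, near that of all genes at −0.14, and the V-ATPase subunits have theirs at 0.43.

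The C/EBPβ enh-/- libraries were also set against WT one by one. Against the mean of the WT libraries, C/EBPβ enh-/- replicates 1 and 2 had median differences of −0.08 and −0.26 over the 40 autophagy genes and of −0.10 and −0.19 over all tested genes, so both libraries kept the sign. Over the V-ATPase subunits these were 0.66 and 0.17, over the lysosomal list 0.27 and −0.23, over the other autophagy genes 0.18 and −0.22, and over nutrient control 0.18 and −0.05. C/EBPβ enh-/- replicate 1 held the highest of the 4 values in 13 of the 15 V-ATPase subunits, in 17 of the 30 lysosomal genes and in 13 of the 40 autophagy genes (86.7%, 56.7% and 32.5%), beside 28.8% of all tested genes. C/EBPβ enh-/- replicate 2 held the lowest in 22 of the 40 autophagy genes, 55.0% of them beside 34.2% of all tested genes. The part of depth and of the share held by the highest genes in these differences was not tested.

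**Figure D5:**
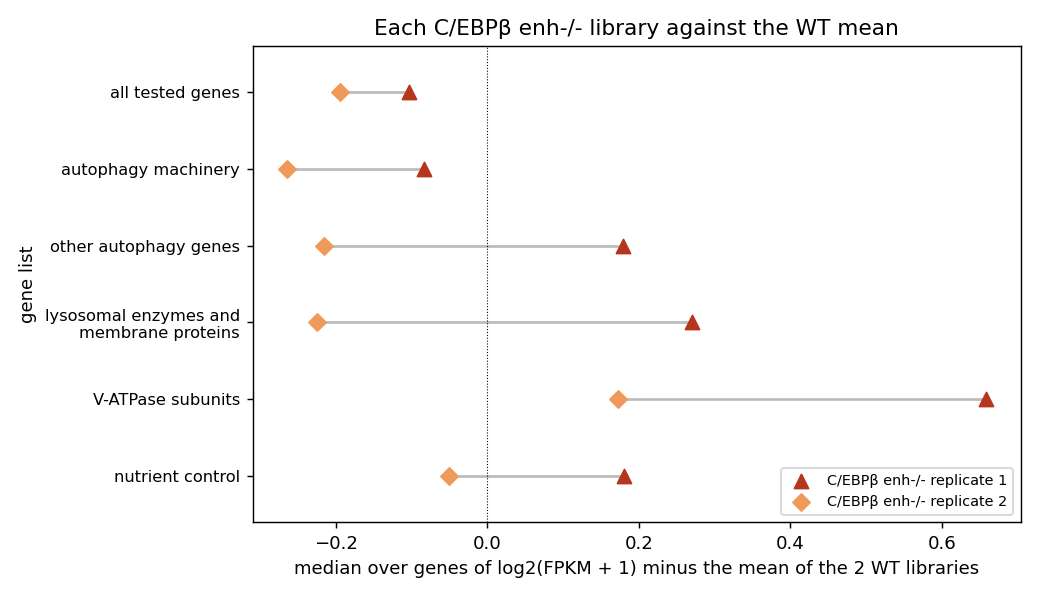
Median over the genes of each list of log2(FPKM + 1) in C/EBPβ enh-/- replicate 1 (triangles) and replicate 2 (diamonds), minus the mean of the 2 WT libraries. Both libraries are below 0 for the autophagy machinery (−0.08 and −0.26) and for all tested genes, and replicate 1 lies at 0.66 for the V-ATPase subunits.

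Promoters were searched for the core of the site of the TFEB family, CACGTG, the AP-1 site TGACTCA and the C/EBP site TTGCNNAA, on both strands, in RefSeq promoters of GRCh38.p14 that run from 250 bases before to 50 bases after the start of the gene. Of the 41 autophagy genes 36 had a promoter there. CACGTG was found in 3 of the 36, ATG14, ATG3 and LAMP1, which is 8.33% beside 7.26% of all 35116 promoters, TGACTCA in 1 (TFE3), 2.78% beside 4.95%, and TTGCNNAA in 5, 13.9% beside 10.5%. The shares of a list count genes with a match in any of their promoters. Those of all promoters count single promoters, and a gene with several promoters can match more easily, so the shares are not like measures. Counted in the same way by gene, CACGTG was in 7 of the 18 genes of the lysosomal list that had a promoter there (38.9%), 3 of 10 of the V-ATPase list (30%), 7 of 26 of nutrient control (26.9%) and 5 of 28 of the other autophagy genes (17.9%). No matches of different motifs overlapped in the listed genes. LAMP1 held 6 copies of CACGTG, and it was the 1 promoter of 35116 with 5 or more. The windows below were matched without mismatch to GRCh37, are written 5′ to 3′ on the strand of the gene and have the motif in capitals. They show CACGTG in the autophagy genes, with 2 of the 6 copies in LAMP1 and 1 of the 2 in ATG3, and 1 of the 2 copies in GAA, the gene that was called.
LAMP1 copy 192 bases before the start: ccaggccgggtCACGTGggtccagggtc
LAMP1 copy 28 bases before the start: acccgcgggatCACGTGacgcccgggcg
ATG14: aaacaaaatccCACGTGactggctctcc
ATG3: ctttctcacgtCACGTGccgggagagtc
GAA: ggaggccgcgtCACGTGacccaccgcgg
On GRCh37 the LAMP1 windows are chr13:113951351-113951378 and chr13:113951515-113951542 on the plus strand, the ATG14 window is chr14:55878553-55878580 and the ATG3 window chr3:112280811-112280838, both on the minus strand, and the GAA window is chr17:78075293-78075320 on the plus strand. All lie outside the annotated gene but that of ATG3, which is in an exon. The 3 autophagy genes with CACGTG had log2 fold changes of −0.51 (LAMP1), −0.26 (ATG14) and −0.17 (ATG3), and GAA had −1.71. Of the other lysosomal genes with it, NEU1, CTSD, MCOLN1, CTSA and CLN3 had 1.04, 0.64, 0.44, 0.40 and 0.19, and CD63 −0.22. Without C/EBPβ enh-/- replicate 1 these were, in that order, 0.05, 0.34, 0.00, 0.02, 0.03 and −0.57. ATP6V0D1, ATP6V0B and ATP6V1G1 had 0.71, 0.64 and 0.63 (0.31, 0.25 and 0.19 without that library). Nutrient control genes with it ran from −0.66 (LAMTOR4) to 0.65 (RRAGB). Of the 5 other autophagy genes with it, SNAP29, BNIP3, VPS16 and VPS11 had −0.69, −0.45, −0.30 and −0.01, and the remaining gene is not given here. Without C/EBPβ enh-/- replicate 1, SNAP29, VPS16 and VPS11 were at −0.84, 0.0005 and −0.12.

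The C/EBP letters are shown because C/EBPβ is the factor whose enhancer was deleted. On the other strand the letters read GCAA at the end in place of TTGC at the front, and 5 autophagy genes held TTGCNNAA on either strand.
PIK3C3: tacatttgcccTTAAGCAAgatggtgggcg
AMBRA1: acgaatcataaTTGCGTAAatttaagtttc
ATG2A: cacacagtactTTACGCAAgcgtaaatcat
ATG9A: gattgccggatTTCTGCAAcacaacaatcc
ATG3: taagccgcctaTTGCAGAAcaaaaaccacg
These windows are chr18:39535033-39535062 (plus strand), chr11:46609098-46609127, chr11:64684869-64684898, chr2:220094552-220094581 and chr3:112280949-112280978 (minus strand) on GRCh37, in the order given, outside the annotated gene but for AMBRA1, where the window is in an intron. The log2 fold changes of these genes were 0.20, 0.26, 0.92, −0.43 and −0.17, so genes with the same letters had values of both signs. A match is a run of letters and was not tested as a binding site.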

How the data were processed

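The authors deposited a file of FPKM for each RNA-seq library, and the 4 files of WT and C/EBPβ enh-/- cells were used. The submitters' processing notes name TopHat2 2.0.13, Cufflinks, edgeR and hg19, without their roles. The labels' extraction text describes chromatin immunoprecipitation, so how RNA was selected is not given in the sources used here. Of 57815 gene entries per file, 47 pseudoautosomal copies were left out, and 55535 of 57768 identifiers matched a symbol.

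Genes with a mean of at least 1 FPKM were compared as log2(FPKM + 1) with limma 3.58.1 in R 4.3.3 (lmFit, then eBayes with trend on), in two-sided tests, Benjamini-Hochberg adjusted over all 12491 genes, threshold 0.05, without a replicate block. The fit was tested on simulated data. Depth was compared through the peak of the ratios of values under 0.3 FPKM.

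The members and lists were chosen with earlier results of these data known, so lists are described by counts and medians without a test. Values in each library are given for members past the threshold, the 12 largest differences without overlap, the most abundant member of each role, members below the filter, ATG7 and CEBPB, and from each other list for calls and the 3 largest differences without overlap. ULK2, MAP1LC3B, CPS1 and the partners on the other strand were named after their values were seen, and the values by chromosome and neighbourhood were computed after that too. Alternatives were a pseudocount of 0.1, eBayes without its trend, no filter, a mean of at least 5 FPKM, protein-coding genes only, 2 scalings, a replicate block and each library left out.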

Additional observations from a re-analysis of the deposited data

How the results depend on the processing

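No autophagy machinery gene was called in limma under any of the 12 alternatives; at an unadjusted p under 0.05 the alternatives gave from 0 to 5 lower and from 0 to 2 higher. Their median log2 fold change of −0.17 was 0.00411 after centring on the median gene and ran from −0.26 to −0.08 with a library left out. CEBPB stayed below WT, from −1.27 to −0.62, with adjusted p from 0.0836 to 0.504 (limma, Benjamini-Hochberg).

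Genes called lower, 151 in all, were 0 without a filter (0 higher), where 30754 genes were tested, 457 among protein-coding genes (60 higher), 61 after rescaling, 68 after centring, and 9 to 22 with a library left out. Genes called higher, 31, were 20 at a mean of at least 5 FPKM and 3 to 20 with a library left out. With the replicate block 93 were called lower and 31 higher. Same-numbered libraries deviated from their genotype means with a correlation of 0.00945 across genes. They share only a number, and the block changed no call of an autophagy gene or of the single genes counted below.

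The median of all tested genes was −0.00115 without a filter, 0.0345 after centring and −0.19 to −0.10 with a library left out. That of the lysosomal list ran from −0.23 to 0.27 and that of nutrient control from −0.0514 to 0.18 with a library left out, the latter being 0.27 after centring. The lysosomal count of 1 lower was 0 without a filter and 0 to 0 with a library left out.

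Of 31 single genes in 371 values, 360 kept side and direction, 5 lost the call (GAA, whose fold change ran only from −1.72 to −1.70 in them) and 6 reversed without a call: ATG101 at 0.112, ATG3 at 0.00488 and GABARAP at 0.0461 after centring, and ATG101 at 0.333, ATG4D at 0.181 and GABARAP at 0.00759 without C/EBPβ enh-/- replicate 2. With a library left out, values ran from −0.458 to 0.333 for ATG101, from −0.582 to 0.181 for ATG4D and from −0.264 to 0.00759 for GABARAP. Among autophagy genes outside these 31, ULK2, ATG13, PIK3R4, UVRAG, WIPI1, ATG12, ATG16L1, ATG16L2, ATG4A, GABARAPL1, GABARAPL2, TFE3 and LAMP2 also had values on both sides of 0 among the alternatives. The cause was not tested where fewer genes or libraries do not show it. With 1 library left in a genotype, it was assumed to vary like the other genotype. The number of libraries limits the precision. C/EBPβ enh-/- replicate 1 had the lowest estimated depth, and what that does to detection was not tested.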
